A study of Mus musculus with 4 samples.

Results

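The AP-1 transcription factors were read as 9 genes, Fos, Fosb, Fosl1, Fosl2, Jun, Junb, Jund, Atf3 and Maff, among the 55487 genes of a count table from sorted limb cells of newborn mice. The genes were chosen by name, and all 9 are in the table and passed the filter on low counts. Fosl1 would not have passed on the libraries labelled cKO alone, since cKO 2 held 9 counts of it. The cells were Prx1+ skeletal progenitors, the mesenchymal cells from which cartilage, bone and tendon of the limb arise, taken from hindlimbs at postnatal day 1. They had been sorted as live cells that lacked CD45, Tie2 and Ter119, the surface markers of blood, endothelial and erythroid cells. Polyadenylated RNA of 2 libraries labelled cKO (numbered 2 and 3) and 2 labelled WT (numbered 2 and 3) was sequenced, with no treatment of the cells.

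The study compared progenitors without and with Ecsit, a protein needed for the assembly of complex I of the mitochondrial respiratory chain and an adaptor of innate immune signalling. The genotype field names a modified Ecsit allele for every library, together with the Rosa26mTmG reporter, which turns from red to green fluorescence where Cre has acted. Prx1-cre is active in the early limb bud mesenchyme, so the deletion is not restricted to 1 descendant cell type. The sample titles give cKO or WT, whereas the genotype field gives Ecsitfl/fl;Rosa26mTmG for the libraries titled cKO and EcsitPrx1;Rosa26mTmG for those titled WT. The titles are followed here. Ecsit itself had 33.6 CPM in cKO 2 and 30.2 CPM in cKO 3, against 12.6 CPM in WT 2 and 18.9 CPM in WT 3, where CPM is the normalised read count, divided by a library size scaled by the trimmed mean of M-values. The gene meant to be deleted was thus higher in both libraries labelled cKO than in both labelled WT, with a log2 fold change, cKO over WT, of 1.02 ± 0.25 (SE) and an adjusted p of 0.0245 by edgeR's quasi-likelihood test. Counts over the whole gene do not show whether the floxed exons were present, and every direction given here turns round if the titles were exchanged. The labels do not say whether a library came from 1 pup or from a pool, so each p-value reflects no more than the spread of these 4 libraries, which may be technical.

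AP-1 is a family of dimeric factors that bind DNA through a basic leucine zipper. Fos proteins cannot pair with each other and act as partners of Jun proteins, while Jun proteins can also pair among themselves, and Atf and small Maf proteins join some of these dimers. Most of these genes are immediate early genes: they are transcribed within minutes of a growth factor, stress or handling signal without new protein synthesis, and their mRNAs decay quickly. In the skeleton, Fos is needed for osteoclasts, and mice with raised Fosb splice forms or Fosl1 in bone-forming cells gain bone mass.

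The libraries held between 18266573 and 20152872 counts. The 9 genes made up 0.414% of counts in cKO 2 and 0.450% in cKO 3, against 0.785% in WT 2 and 0.848% in WT 3. Libraries also differed in other ways along the same line. Ribosomal protein genes made up 10.2% of counts in both cKO 2 and cKO 3, against 3.21% in WT 2 and 6.30% in WT 3. The median log2 fold change, cKO over WT, ran from 0.84 among the tenth of genes with the shortest exons to -0.75 in the tenth with the longest, and the same medians were 0.43 and -0.45 for WT 3 over WT 2, a pair with 1 label. The part of these library differences in the AP-1 results was not tested beyond the exon length correction given below. Over all tested genes the median absolute log2 difference was 0.15 between the libraries labelled cKO and 0.35 between those labelled WT, so the libraries labelled WT were less alike. The 14 progenitor markers fixed for the check summed to 61272 and 52319 CPM in cKO 2 and 3, against 51665 and 53180 CPM in WT 2 and 3. None of them passed the test. Most of the sum was collagen, with Col1a1 at 31127 and Col3a1 at 20073 CPM in cKO 2. Prrx1 had 213 and 194 CPM in cKO 2 and 3, against 265 and 264 CPM in WT 2 and 3. With the exon length correction Postn was called higher (0.82, adjusted p 0.0398, edgeR) and Twist2 lower (-1.22, adjusted p 0.0316, edgeR).

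To show what the promoters of the members hold, the 150 bases upstream of the start given by RefSeq were searched for short binding motifs, and those ahead of 6 members are printed in gene direction, 5′ to 3′, from GRCm38.p6, leaving out bases that lie in an annotated exon. Capitals mark the cyclic AMP response element TGACGTCA or its shorter form TGACG, the site TGACATCA bound by dimers of Jun and ATF proteins, the MEF2 site and the TATA box TATAAA. The windows are chr12:85473740-85473889 (+ strand) for Fos, chr7:19310052-19310195 (- strand) for Fosb, chr4:95052223-95052372 (- strand) for Jun, chr8:84978749-84978898 (- strand) for Junb, chr1:191183341-191183483 (- strand) for Atf3 and chr15:79347370-79347519 (+ strand) for the second RefSeq start of Maff.
Fos: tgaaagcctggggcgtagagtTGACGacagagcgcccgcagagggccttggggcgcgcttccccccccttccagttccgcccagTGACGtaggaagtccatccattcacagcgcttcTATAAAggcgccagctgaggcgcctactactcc
Fosb: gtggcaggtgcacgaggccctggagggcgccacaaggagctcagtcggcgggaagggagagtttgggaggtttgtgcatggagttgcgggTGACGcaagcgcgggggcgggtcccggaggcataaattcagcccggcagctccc
Jun: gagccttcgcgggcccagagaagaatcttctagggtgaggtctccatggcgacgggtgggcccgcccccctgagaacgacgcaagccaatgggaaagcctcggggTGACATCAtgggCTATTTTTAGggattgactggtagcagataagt
Junb: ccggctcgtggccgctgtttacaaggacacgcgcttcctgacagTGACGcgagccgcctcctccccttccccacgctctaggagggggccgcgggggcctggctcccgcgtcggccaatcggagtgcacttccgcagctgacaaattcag
Atf3: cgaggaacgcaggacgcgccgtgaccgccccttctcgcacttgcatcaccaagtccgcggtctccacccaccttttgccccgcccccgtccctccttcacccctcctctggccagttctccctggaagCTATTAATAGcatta
Maff: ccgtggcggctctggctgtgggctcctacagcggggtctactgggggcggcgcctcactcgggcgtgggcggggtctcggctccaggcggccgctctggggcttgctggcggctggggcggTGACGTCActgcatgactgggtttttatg

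The short form TGACG stood at -66 to -62 and again at -129 to -125 from the start of Fos, at -60 to -56 in Fosb and at -106 to -102 in Junb. Its reverse, CGTCA, stood at -7 to -3 in Atf3, beyond the bases printed, and at -122 to -118 in the third Maff promoter. The full element TGACGTCA stood at -29 to -22 in the second Maff promoter, where it holds the short form on both strands. Among 32851 RefSeq promoter windows of the same length, searched on both strands, 13.3% hold TGACG and 1.36% hold TGACGTCA. TGACATCA, which 2.32% of the windows hold, stood at -45 to -38 in Jun and at the same distance in the third Maff promoter. A MEF2 site, held by 0.332% of the windows, stood at -33 to -24 in Jun and at -22 to -13 in Atf3. The TATA box stood at -33 to -28 in Fos, and 4.84% of the windows hold it on the strand of the gene. CCAAT, held by 24.5%, stood at -65 to -61 in Jun and at -36 to -32 in Junb. No window of the members held the AP-1 element TGAGTCA, which 2.84% of the windows hold, or a CArG box, the site of serum response factor, which 0.916% hold, and the CArG-bearing element of Fos lies upstream of the bases searched. These are matches of letters, and they do not say which factor was bound in these cells. The Fosl2 window lies in an annotated exon, the Jund start of RefSeq lies upstream of the gene counted here, and no Fosl1 window was used here.

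Of the 9 genes, 4 were lower in the libraries labelled cKO at an adjusted p under 0.05 (Fosb, Fosl2, Maff and Atf3), none was higher and 5 did not pass. Over all 16157 genes tested, 14.3% were lower and 14.1% were higher by the same rule. By edgeR at an unadjusted p under 0.05, 5 members were lower and 0 higher, and DESeq2 called 4 lower and 0 higher. The median log2 fold change of the 9 genes, cKO over WT, was -0.88, against -0.02 over all genes tested, and 8 of the 9 values were negative. Without Fosl1 the median was -0.62. In CPM, both libraries labelled cKO lay below both labelled WT for 6 members (Fos, Fosb, Fosl1, Fosl2, Atf3 and Maff) and above them for 1, Junb, while Jun and Jund overlapped. Over all genes tested, 36.2% lay below and 36.3% above in this way.

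**Figure D1:**
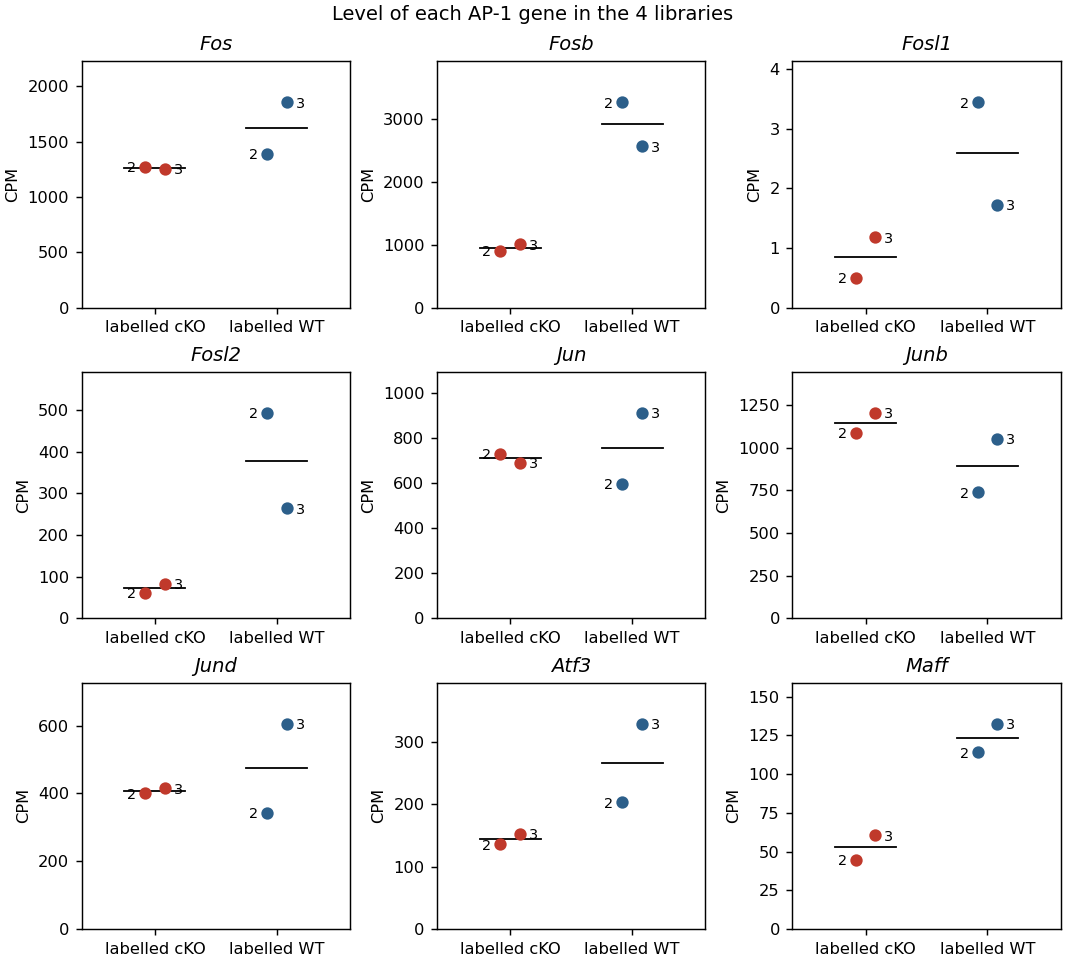
Level of each AP-1 gene in CPM (vertical axis, from 0, a scale of its own in each panel) in the libraries labelled cKO (left, red) and WT (right, blue), each point being 1 library with its number and the line the mean of 2. The red points lie below both blue points for Fos, Fosb, Fosl1, Fosl2, Atf3 and Maff, above both for Junb, and between them for Jun and Jund.

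Fosl2, which encodes Fra-2, a Fos protein that in mice promotes bone formation and matrix production by osteoblasts and chondrocytes, showed the largest change of the 9 without the exon length correction, and the second largest, after Fosl1, with it. It is on chromosome 5 (32135801 to 32157842, + strand, GRCm38). It had 61.5 and 83.2 CPM in cKO 2 and 3, from 1105 and 1482 counts, against 493 and 264 CPM in WT 2 and 3, from 9889 and 5362 counts. The groups did not overlap, and WT 2 was well above WT 3. The level averaged 72.3 ± 15.3 CPM in the libraries labelled cKO and 379 ± 162 CPM in those labelled WT (SD, n = 2 each). The log2 fold change was -2.39 ± 0.33 (SE), with a 95% interval of -3.15 to -1.62 and an adjusted p of 0.0127, a level 5.23-fold lower in the libraries labelled cKO. Fosl2 was called lower under each way of processing that was tried, including each fit with 1 library left out.

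Fosb encodes FosB and, through a splice form, the truncated and long-lived ΔFosB, which these gene counts do not separate. The gene is on chromosome 7 (19302696 to 19310051, - strand). It had 902 and 1005 CPM in cKO 2 and 3, from 16212 and 17903 counts, against 3267 and 2565 CPM in WT 2 and 3, from 65497 and 52105 counts. The groups lay far apart, and the difference within each label was small beside that between the labels. Fosb averaged 954 ± 72.3 CPM in the libraries labelled cKO and 2916 ± 496 CPM in those labelled WT (SD, n = 2 each). Its log2 fold change, cKO over WT, was -1.61 ± 0.27 (SE), with a 95% interval of -2.23 to -0.99 and an adjusted p of 0.0139, a level 3.06-fold lower. Without cKO 2 the call was lost (adjusted p 0.0667, edgeR), at a log2 fold change of -1.54.

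Fos, the founding member and the one most often used as a sign of recent stimulation, is on chromosome 12 (85473890 to 85477273, + strand). It had 1276 and 1254 CPM in cKO 2 and 3, against 1392 and 1858 CPM in WT 2 and 3. Both libraries labelled cKO lay below both labelled WT, but WT 2 was nearer to them than to WT 3. For Fos the log2 fold change was -0.36 ± 0.26 (SE), with a 95% interval of -0.96 to 0.24 and an adjusted p of 0.314. The interval leaves room for a decline of close to 1 on the log2 scale as well as for none.

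Fosl1, which encodes Fra-1, was at the edge of detection. It had 9 and 21 counts in cKO 2 and 3, with 95% Poisson intervals of 4.12 to 17.1 and 12.999 to 32.1, against 69 and 35 counts in WT 2 and 3, with intervals of 53.7 to 87.3 and 24.4 to 48.7. The intervals of cKO 3 and WT 3 overlap, and they cover counting error only. Fosl1 had a log2 fold change of -1.61 ± 0.55 (SE), with an adjusted p of 0.0598. It moved with single libraries, to -2.37 without cKO 3 (adjusted p 0.0383, edgeR), -2.02 without WT 3 (adjusted p 0.0170), -1.13 without cKO 2 (adjusted p 0.3002) and -1.03 without WT 2 (adjusted p 0.235). Its exons share 1163 bases with those of Ccdc85b on the opposite strand, and the libraries do not mark the strand, so reads from these bases cannot be assigned to either gene.

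Within the Fos family Fosl2 thus had the largest fold change, Fosb and Fosl1 had like values and Fos the smallest, an order that held without the exon length correction, whereas with it Fosl1 came first. The intervals of Fosl2 and Fosb overlap each other, while that of Fosl2 lies wholly below that of Fos. Within a library, which sets aside library size, there were 0.707 and 0.801 counts of Fosb for each count of Fos in cKO 2 and 3, against 2.35 and 1.38 in WT 2 and 3. Fosb therefore had fewer counts than Fos in both libraries labelled cKO and more in both labelled WT. For Fosl2 the same ratio to Fos was 0.0482 and 0.0663 in cKO 2 and 3, against 0.354 and 0.142 in WT 2 and 3. Neither ratio overlapped between the labels, and with 2 libraries each an exact permutation test of a single ratio cannot give a two-sided p below 0.333. These ratios keep the exon length trend: the log2 fold change of Fosl2 minus that of Fos was -2.03, and -1.26 with the exon length correction, and for Fosb minus Fos it was -1.25, and -0.81 with the correction.

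The Jun genes encode the partners that every Fos protein needs, and none of the 3 passed the test. Jun, a single-exon gene on chromosome 4 (95049034 to 95052222, - strand), had 731 and 689 CPM in cKO 2 and 3, against 596 and 912 CPM in WT 2 and 3. The libraries labelled cKO lay between those labelled WT. Its log2 fold change was -0.09 ± 0.27 (SE), with a 95% interval of -0.71 to 0.54 and an adjusted p of 0.822. The exon of Jun shares 232 bases with the antisense gene Junos on the opposite strand, so reads from these bases may be missing from its count.

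Junb, needed in mice for the proliferation and differentiation of osteoblasts and chondrocytes, was the only member with a positive value. It is on chromosome 8 (84974484 to 84978718, - strand). It had 1089 and 1204 CPM in cKO 2 and 3, against 740 and 1051 CPM in WT 2 and 3. The groups did not overlap, but the gap between cKO 2 and WT 3 was small beside that between WT 3 and WT 2. That is a log2 fold change of 0.36 ± 0.27 (SE), with a 95% interval of -0.25 to 0.97 and an adjusted p of 0.329. Its exons share 173 bases with Prdx2 on the opposite strand.

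Jund, the most constant Jun gene across cell states in general, is a single-exon gene on chromosome 8 (70698949 to 70700616, + strand). It had 400 and 415 CPM in cKO 2 and 3, against 343 and 606 CPM in WT 2 and 3. The libraries labelled cKO were nearly equal and lay between those labelled WT. This gave a log2 fold change of -0.22 ± 0.29 (SE), with a 95% interval of -0.90 to 0.46 and an adjusted p of 0.589. Its 1668 exon bases share 877 with Gm11175 on the opposite strand, which had 0 counts in all 4 libraries. Since the libraries do not mark the strand, reads from these bases may be missing from the count of Jund. For all 3 Jun genes WT 3 was above WT 2, by 0.61 (Jun), 0.51 (Junb) and 0.82 (Jund) on the log2 scale, and for Jun and Jund the sign depended on which library stood for WT, while Junb stayed positive with either. Without WT 3 the log2 fold changes of Jun, Jund and Junb were 0.26, 0.25 and 0.64, and Junb was called higher (adjusted p 0.00607, edgeR). Without WT 2, Jun, Jund and Fos were called lower, with adjusted p of 0.0411, 0.00793 and 0.0117 by edgeR.

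Atf3 and Maff are stress-responsive members outside the Fos and Jun families. Atf3, which encodes a factor of the ATF/CREB group that represses as a homodimer and rises in many stress responses, is on chromosome 1 (191170296 to 191218039, - strand). It had 136 and 153 CPM in cKO 2 and 3, against 204 and 330 CPM in WT 2 and 3. The groups did not overlap, and WT 2 and WT 3 differed more than cKO 3 and WT 2. It averaged 144 ± 12.3 CPM in the libraries labelled cKO and 267 ± 89.2 CPM in those labelled WT (SD, n = 2 each). For Atf3 the log2 fold change was -0.88 ± 0.27 (SE), with a 95% interval of -1.50 to -0.27 and an adjusted p of 0.0415, a level 1.85-fold lower. The call was lost without cKO 2 (-0.79, adjusted p 0.339, edgeR), without cKO 3 (-0.99, adjusted p 0.213) and without the filter on low counts (-0.84, adjusted p 0.0974), and without WT 3 it held at a smaller log2 fold change of -0.49 (adjusted p 0.0130).

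Maff encodes a small Maf protein, which has no activation domain of its own and acts as a partner of CNC factors such as Nfe2l2 or as a homodimer. It is on chromosome 15 (79346621 to 79359076, + strand). It had 44.8 and 60.6 CPM in cKO 2 and 3, from 805 and 1080 counts, against 114 and 133 CPM in WT 2 and 3, from 2290 and 2694 counts. The groups lay apart by more than the difference within either label. It averaged 52.7 ± 11.2 CPM in the libraries labelled cKO and 123 ± 13.01 CPM in those labelled WT (SD, n = 2 each). In Maff the log2 fold change was -1.23 ± 0.22 (SE), with a 95% interval of -1.74 to -0.72 and an adjusted p of 0.0149, a level 2.34-fold lower. Without cKO 2 this call too was lost (adjusted p 0.176, edgeR), at a log2 fold change of -1.02.

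**Figure D2:**
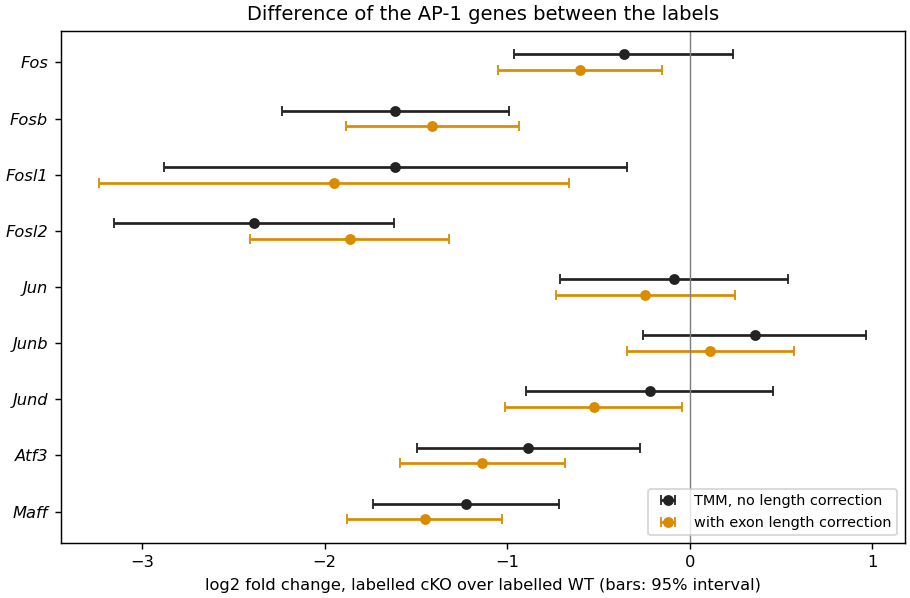
Log2 fold change of each AP-1 gene, labelled cKO over labelled WT (horizontal axis), with its 95% interval from edgeR, without (black) and with (orange) the exon length correction, n = 2 libraries each. Fosb, Fosl2, Atf3 and Maff lie left of 0 with both, at -2.39 (Fosl2) to -0.88 (Atf3) without the correction, and the black intervals of Fos, Jun, Junb and Jund cross 0.

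Exon length bears on these values, since the members run from 1668 bases of merged exons (Jund) to 9680 (Fosl2). Among 10 groups of genes by exon length, Fosl2 falls in the group of the longest genes, where the median log2 fold change was -0.75, and Fosb in the eighth group, with a median of -0.24. Fosl2 differed from its group's median by -1.64 and Fosb from its own by -1.37, and 1.18% (Fosl2) and 3.47% (Fosb) of the genes in those groups had a lower value. Fos, Atf3, Maff and Junb share the third group, whose median was 0.33. Against that median the differences were -1.55 for Maff, -1.21 for Atf3 and -0.69 for Fos, whereas Junb stood 0.03 above it.

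A fit that takes out a smooth trend of level on exon length in each library called 6 members lower and 0 higher, where it called 12.8% of 16143 genes lower and 15.8% higher. The median over the members was then -1.14, against 0.03 over all genes. Fosb, Fosl2, Atf3 and Maff were called in both fits, with length-corrected log2 fold changes of -1.41 (Fosb), -1.86 (Fosl2), -1.14 (Atf3) and -1.45 (Maff). Fos and Fosl1 were called in addition, at -0.60 (adjusted p 0.0496) and -1.95 (adjusted p 0.0335) by edgeR, though Fos was not called when the replicate block was fitted as well (adjusted p 0.0998). Fosl1 entered the test through the counts of libraries other than cKO 2, and without it 5 of 8 members were lower and the length-corrected median was -0.87. Jun, Junb and Jund were called in neither fit, at -0.24, 0.11 and -0.53. The merged exons of Fosb and Fosl2 include bases of other annotated transcripts, which places both in longer groups than their principal transcripts of 3782 and 6537 bases would.

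**Figure D3:**
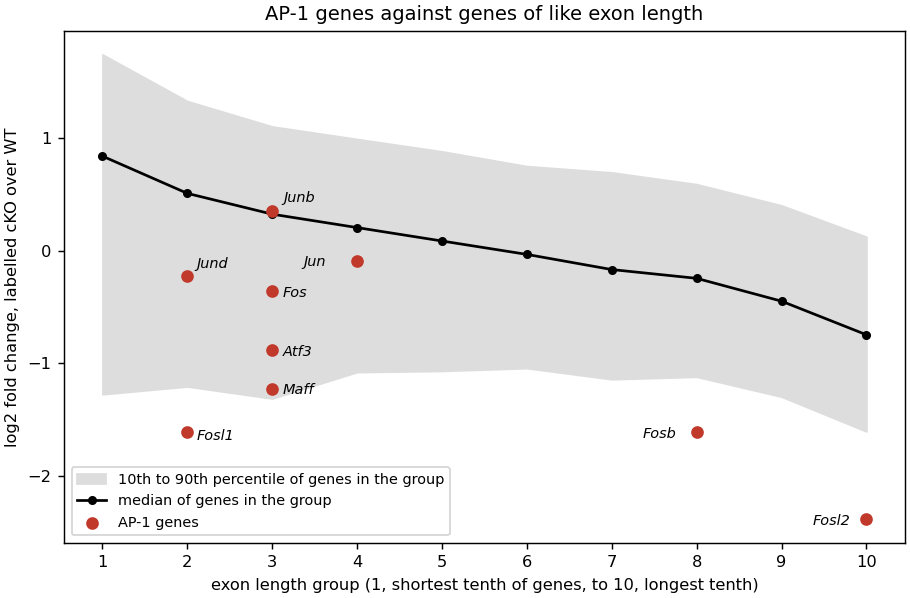
Log2 fold change, labelled cKO over labelled WT (vertical axis), of the AP-1 genes (red) against 10 groups of genes by merged exon length (horizontal axis), with the median of all tested genes in each group (black line) and the 10th to 90th percentile (grey). The black line falls with exon length, to -0.75 in the longest group, and Fosb, Fosl1 and Fosl2 lie below the grey band of their groups.

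Levels can be set side by side between genes only per length, here as CPM per kb of merged exons. On this scale Fos was the most abundant member in all 4 libraries, with 542 and 533 in cKO 2 and 3, against 592 and 790 in WT 2 and 3. Junb followed in the libraries labelled cKO, with 473 and 523, against 322 and 457 in WT 2 and 3. Fosb had 145 and 161 in cKO 2 and 3, against 523 and 411 in WT 2 and 3. Fosb was thus the fifth member in both libraries labelled cKO, and the second in WT 2 and the third in WT 3. Per kb of principal transcript the first place moved, to Junb in cKO 3 and to Fosb in WT 2, so the order of the leading genes depends on the length used. Jund may stand too low in this order, since reads from part of its exons may be uncounted.

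Among all protein-coding genes per kb of merged exons, Fos ranked 96 and 92 in cKO 2 and 3, against 26 and 30 in WT 2 and 3. Fosb ranked 341 and 299 in cKO 2 and 3, against 28 and 76 in WT 2 and 3. Both genes were thus among the abundant transcripts of all 4 libraries. Junb also ranked lower in the libraries labelled cKO, at 113 and 96, against 66 and 63 in WT 2 and 3, though its CPM was higher there. A change of rank thus does not follow the level of a gene alone. Fosl2 ranked 5618 and 4651 in cKO 2 and 3, against 631 and 1467 in WT 2 and 3. Fosl2 thus stood far lower in the list in both libraries labelled cKO than in either labelled WT.

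The make-up of the pool followed from these shifts. Summed per kb of principal transcript, the Fos family held 0.797 and 0.773 times the level of the Jun family in cKO 2 and 3, against 1.998 and 1.30 times in WT 2 and 3. As counted, Fos family transcripts thus stood below Jun family transcripts in both libraries labelled cKO and above them in both labelled WT. Per kb of merged exons the ratios were 0.736 and 0.712 in cKO 2 and 3, against 1.63 and 1.11 in WT 2 and 3, with the same order. Both sets of ratios keep the exon length trend, since the exons of Fosb and Fosl2 are longer than those of the Jun genes. Division by length does not take out a trend that differs between libraries. The Jun family sums may be too low, since reads from 877 of the 1668 exon bases of Jund may be uncounted. The same holds for 232 exon bases of Jun and 173 of Junb. Whether the Fos family stood above the Jun family in WT 3 is therefore uncertain. Of the Fos family genes, Fosb combined a high level with a large difference. This ratio was not tested, and transcript ratios do not give protein or dimer ratios.

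**Figure D4:**
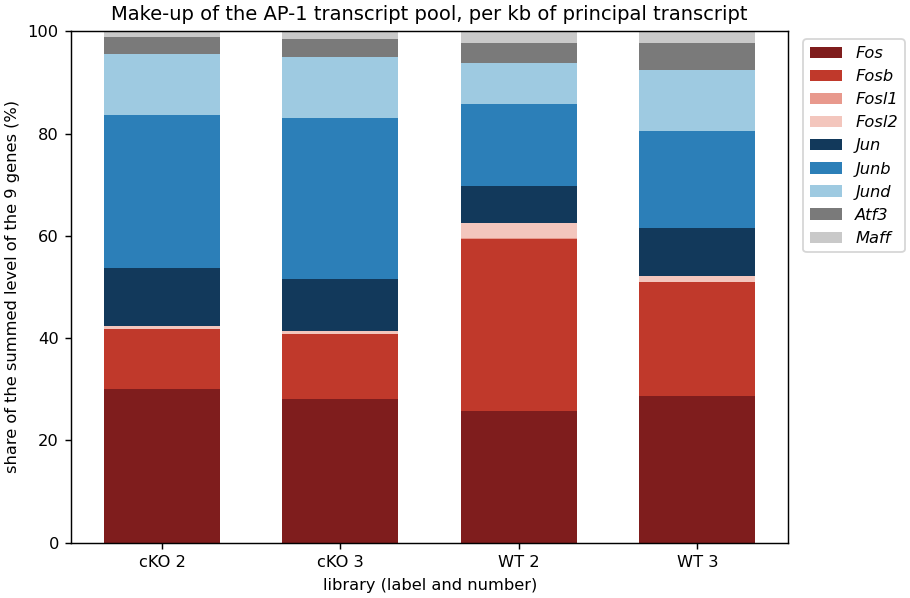
Share of each gene (%, vertical axis) in the summed level of the 9 AP-1 genes, per kb of principal transcript, in the libraries labelled cKO (left) and WT (right), with Fos family genes in red, Jun family genes in blue and Atf3 and Maff in grey. The Fos family took 42.3% and 41.4% in cKO 2 and 3, against 62.5% and 52.2% in WT 2 and 3. The shares of the Jun genes, Jund above all, may be too low, since reads from part of their exons may be uncounted. All shares keep the exon length trend.

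Fast decay of immediate early mRNAs is tied to AU-rich elements in the 3′ untranslated region, so the principal transcripts were searched for the nonamer TTATTTATT, which is bound by the decay factors of the Zfp36 family. It was found once in Fos, once in Fosl2 and 2 times in Maff, and in none of the other 6 members, and 7.65% of the 13575 tested genes with such a region hold it. The sites are shown, capitals marking the nonamer, at chr12:85477105-85477129 for Fos, chr5:32156873-32156897 for Fosl2 and chr15:79358780-79358804 for Maff, the first of its 2 sites (all + strand, GRCm38).
Fos: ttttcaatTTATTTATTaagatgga
Fosl2: ttattttaTTATTTATTttaaatgt
Maff: ccacactcTTATTTATTgcacgaat

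The nonamer was thus held by Fosl2 and Maff, which were lower in the libraries labelled cKO, and by Fos, which did not pass, whereas Fosb and Atf3 were lower without it. The shorter ATTTA occurred in every member, from 1 time in Fosb, Fosl1 and Jund to 8 times in Fosl2. The 3′ untranslated region of Fosl2 is the longest of the members, at 4653 bases. Per kb of this region ATTTA ran from 0.466 in Fosb to 4.12 in Junb and 4.91 in Fos, with 1.72 in Fosl2. The median over the tested genes with such a region was 1.276 per kb.

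Genes around AP-1 were described by 8 lists, each by its counts and median beside the 14.3% of all genes called lower and 14.1% called higher. Among 18 tested partners of the same zipper family, 7 were lower and 0 higher, with a median log2 fold change of -0.47. Creb5 had 53.1 and 54.2 CPM in cKO 2 and 3, against 131 and 110 CPM in WT 2 and 3 (log2 fold change -1.17, adjusted p 0.0137, edgeR). Mafg, a small Maf protein like Maff, had 37.8 and 37.8 CPM, against 97.2 and 72.1 CPM (log2 fold change -1.16, adjusted p 0.0153, edgeR). Bach2, a repressor that pairs with small Maf proteins, was lower by the same test (log2 fold change -1.84, adjusted p 0.0153). All 3 lay lower in both libraries labelled cKO, but the exon length correction brought Creb5 to -0.05, where it was not called. With that correction 6 of the list were lower, 5 of the 7 already called (Bach2, Mafg, Atf7, Bach1 and Mafk) and Cebpb, which was not called before. Without cKO 2 only 1 gene of the list was called lower.

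Upstream of AP-1, the MAP kinases phosphorylate Fos and Jun proteins and the factors at their promoters. Of 24 genes of this group, 1 was higher and 3 were lower, with a median of -0.09, near that of all genes. Mapk3, which encodes ERK1, had 164 and 156 CPM in cKO 2 and 3, against 67.6 and 94.9 CPM in WT 2 and 3 (log2 fold change 0.98, adjusted p 0.0209, edgeR). Map3k1 (-1.34), Rps6ka3 (-0.93) and Mapk8 (-0.85), which encode a JNK pathway kinase, the ERK-activated kinase RSK2 and JNK1, were lower on the log2 scale. With the exon length correction Mapk8 (-0.25) and Rps6ka3 (-0.53) were no longer called, and the list had 2 lower and 1 higher. Kinase activity was not measured. Without cKO 2 none of the 24 was called in either direction.

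Of 14 transcription factors and coactivators that act at the Fos and Jun promoters, 8 were lower and 0 higher, with a median log2 fold change of -0.89. Elk4, a ternary complex factor that binds beside serum response factor, had 14.8 and 16.4 CPM in cKO 2 and 3, against 55.3 and 51.0 CPM in WT 2 and 3 (log2 fold change -1.76, adjusted p 0.0117, edgeR). The histone acetyltransferase gene Crebbp (-1.53) and the CREB coactivator gene Crtc2 (-1.09) were also lower on the log2 scale. With the exon length correction 7 of the 14 were lower and 2 higher, and without cKO 2 only 2 were lower.

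Among 14 genes for the turnover of AP-1 proteins and mRNAs, 5 were lower and 0 higher, with a median of -0.48. They include Fbxw7, the ubiquitin ligase subunit that recognises Jun (log2 fold change -1.17), and the corepressor gene Ncor1 (-0.89). The exon length correction brought Ncor1 to -0.20, where it was not called, and the list then had 4 lower and 1 higher (Cop1, 1.201, a ubiquitin ligase). With cKO 2 or cKO 3 left out, 0 of the 14 were called lower.

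Few genes known as AP-1 targets were called. Of 24 such genes 22 were tested, 1 was lower and 0 were higher, with a median log2 fold change of -0.15, so the share lower was below that of all genes. With the exon length correction 2 were lower and 0 higher, and the median was -0.33, against 0.03 over all genes. When the replicate block was fitted as well, 4 were lower. The matrix protease gene Mmp13, a target of Fos and Runx2 in cartilage and bone, had 12.5 and 5.72 CPM in cKO 2 and 3, against 12.9 and 10.98 CPM in WT 2 and 3, and did not pass. Mmp13 was named after its values were seen. Of 11 tested bone matrix and osteoblast genes tied to Fos proteins, only Runx2, the master factor of osteoblasts, was called, with 12.3 and 13.7 CPM in cKO 2 and 3, against 50.6 and 36.7 CPM in WT 2 and 3 (log2 fold change -1.75, adjusted p 0.0127, edgeR). With the exon length correction Runx2 stayed lower (-1.31), and Col1a2 was called higher (0.84, adjusted p 0.0389, edgeR).

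Other immediate early genes did not move as 1 block. Of 32, 9 were lower and 2 were higher, with a median log2 fold change of -0.38. The orphan receptor genes Nr4a3 (-2.67) and Nr4a2 (-2.40) and the zinc finger gene Egr3 (-2.37) were lower by amounts near that of Fosl2, while Nfkbia, the inhibitor of NF-κB, and Ier3 were higher, by 1.39 and 0.99 on the log2 scale. With the exon length correction 16 were lower and 2 higher, and without cKO 2 the count lower was 4.

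Release of cells by enzymes is known to induce immediate early and heat shock genes, and it precedes every sort of this kind. Of 11 heat shock genes, 2 were higher and 0 lower, with a median log2 fold change of 0.58. With the exon length correction 3 were higher and 0 lower, with a median of 0.40. Hspe1 was higher by 1.25, and Hspa1b by 0.97, though Hspa1b shares reads with its near-identical copy Hspa1a and is uncertain. Among the lists with no gene called in 1 direction, edgeR at an unadjusted p under 0.05 gave 1 partner gene higher (Jdp2) and 1 heat shock gene lower (Dnajb4), both named after their values were seen, and 0 higher for promoter factors, turnover, AP-1 targets and bone matrix genes, and DESeq2 called 0 in each of these cases. The time between dissection and lysis of each library is not in the labels, and its part in the AP-1 levels was not tested.

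**Figure D5:**
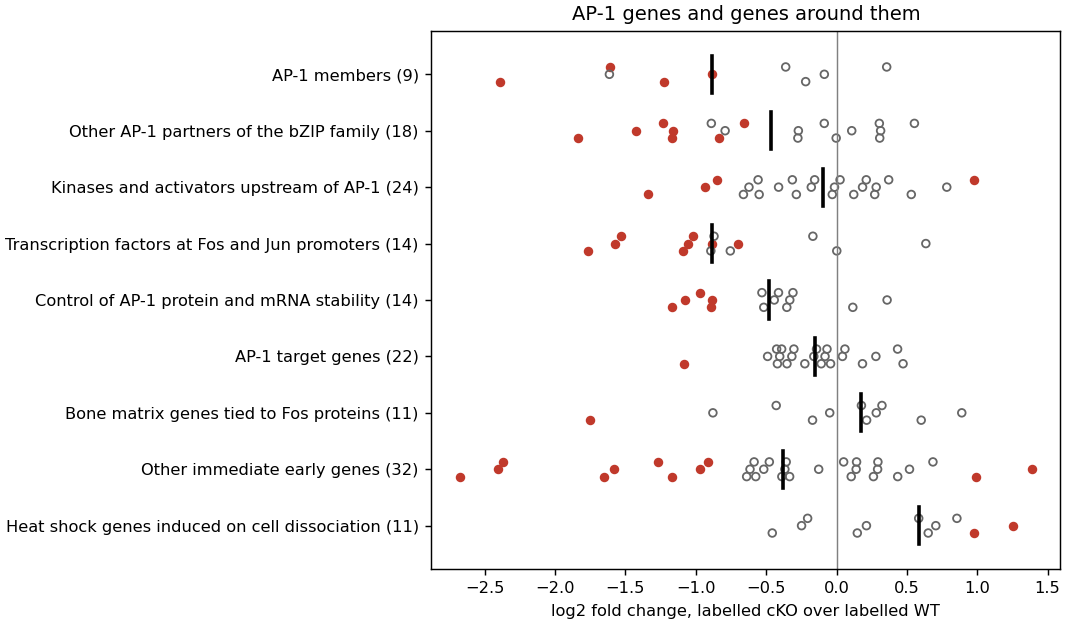
Log2 fold change, labelled cKO over labelled WT (horizontal axis), of each tested gene in the AP-1 group and 8 lists around it (number tested in brackets), filled red where the adjusted p is under 0.05 and open otherwise, with the median of each list as a black bar. Medians range from -0.89 for the factors at the Fos and Jun promoters to 0.58 for heat shock genes, and AP-1 itself stands at -0.88.

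Markers of other cells moved with the labels beside these results. All 8 chondrocyte markers were lower in the libraries labelled cKO, with a summed level of 4390 and 4366 CPM in cKO 2 and 3, against 14903 and 7654 CPM in WT 2 and 3. Of 6 tested erythroid markers 5 were higher, summing to 2018 and 1914 CPM, against 684 and 604 CPM, and of 10 tested muscle markers 6 were higher, summing to 189 and 185 CPM, against 42.2 and 57.8 CPM. Of 9 tested haematopoietic markers 5 were higher (Lyz2, Mpo, S100a8, S100a9 and Tyrobp) and 1, Cd68, was lower. They summed to 17.1 and 20.03 CPM, against 12.97 and 15.7 CPM, with Ptprc at 3 and 3 counts, against 1 and 3, and Mpo and S100a9 at 0 in both libraries labelled WT. Osteoblast (1 of 7 tested markers higher and 1 lower), keratinocyte (0 of 7 called) and Schwann cell markers (4 of 5 lower) stayed at low summed levels. Of 8 tested endothelial markers 1, Egfl7, was higher (log2 fold change 1.87, adjusted p 0.0127, edgeR) and 0 were lower. With the exon length correction 3 were higher (Egfl7, Tie1 and Flt1). Endothelial markers summed to 73.0 and 75.8 CPM, against 71.3 and 61.7 CPM. Fewer cells of a type and less RNA per cell cannot be told apart in bulk libraries, and the part of these markers in the AP-1 differences was not tested.

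The genes whose pattern over the 4 libraries was most like that of Fosl2, Junb and Fos were sought among 9327 protein-coding genes whose CPM averaged 10 or more over the 4 libraries, by the root mean square difference of centred log2 CPM. For Fosl2 these were Nav2 (0.0871), Nfat5 (0.0877) and Rab11fip4 (0.115), each lowest in cKO 2 and highest in WT 2. Nfat5 had 36.9 and 42.9 CPM in cKO 2 and 3, against 264 and 138 CPM in WT 2 and 3. For Junb they were H2ax (0.00505), Trim27 (0.0115) and Eif4a3 (0.0151), and for Fos Cdc25c, Vcam1 and Zfp950 (0.0290, 0.0290 and 0.0291), with WT 3 highest in each of these 3. With 4 libraries many genes come near any pattern, and the likeness is given as a description.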

How the data were processed

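The deposited table gives raw counts per gene, not normalized and not pooled, for the 4 libraries, and each of its count columns was used. By the study's methods, reads were aligned to mm10 by STAR, with GENCODE vM25 for the gene models, and counted by featureCounts. The processing notes of the submitters differ: they list STAR (2.6.1b), HTSeq (0.11.3), DESeq2 (1.28.1) and a human build, GRCh38.p12. Which pipeline made the table is not stated in it. Of its identifiers, 99.4% are in GENCODE vM21 on GRCm38, used here for positions, exon lengths and transcripts. Library preparation as described does not mark the strand. Promoters came from RefSeq (GRCm38.p6), where 8 of the 9 members matched.

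Counts were tested by the quasi-likelihood method of edgeR (4.0.16, under R 4.3.3), cKO over WT by label, with the condition alone in the model. Low genes were removed by filterByExpr (minimum count 10) and libraries scaled by TMM. A gene was called where its p, adjusted by Benjamini and Hochberg over all 16157 genes that remained, was under 0.05. Each SE is that of the log2 fold change. Other settings tried were DESeq2 size factors, TMM leaving out ribosomal protein and mitochondrial DNA genes, other filters, DESeq2 (1.42.0) without and with ashr (2.2.63), an added limit on fold (0.585 in absolute log2), the replicate number as a block, and an offset for exon length (lowess of log2 CPM with pseudocount 0.5 on log10 length in each library, span 0.3). Each library was also left out in turn, which leaves 1 in its group, assumed to vary like the other group. A block with crossed numbers was added after seeing the data. Scripts were tested on simulated data. The members and lists were chosen with earlier results of these data known. By rule the text names every member, Ecsit, per list up to 3 called genes in each direction with the smallest p, and the 3 genes nearest in pattern to Fosl2, Junb and Fos. Some genes that the rule takes are not reported here, and other genes of the lists were named after their values were seen.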

Additional observations from a re-analysis of the deposited data

How the results depend on the processing

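Fosl2 was called lower under every setting that was run. AP-1 genes called lower numbered 4, and with single libraries left out they ranged from 1 (without cKO 2) to 7 (without WT 2), while those called higher ranged from 0 to 1 (Junb without WT 3). Over all genes, 2275 were called higher and 2314 lower. With no filter on low counts these were 869 and 665. With single libraries left out, genes called higher ranged from 506 (without cKO 3) to 4459 (without WT 3), and genes called lower from 518 (without cKO 2) to 4254 (without WT 3). The direction turned for Jun, whose log2 fold change ran from -0.36 without WT 2 to 0.26 without WT 3, and for Jund, from -0.57 to 0.25. It also turned for Zfp950 with the exon length correction (0.15) and, with that correction and the replicate block together, for Zfp950 (0.20) and Vcam1 (0.041). The cause was not tested. In the lists around AP-1, no filter on low counts left 3 zipper partners, 3 promoter factors, 1 turnover gene and 0 kinases called lower, and DESeq2 called 5 heat shock genes higher in place of 2. With single libraries left out, genes called lower ranged from 1 to 8 for partners, 2 to 11 for promoter factors, 0 to 11 for turnover, 0 to 7 for kinases, 0 to 5 for AP-1 targets and 4 to 18 for other immediate early genes. Fosl1 could not be fitted with a minimum of 10 counts in every library, since cKO 2 held 9.

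Deviations of libraries with the same number from their group means correlated at -0.101 over genes, and with the numbers crossed at 0.101. Within each group the deviations were equal and opposite, so these values mirror each other. They cannot decide whether the numbers pair the samples. With the replicate block 2615 genes were called higher and 2753 lower, and Fosl1 was called lower (adjusted p 0.0103, edgeR). A block with the numbers crossed called 2816 higher and 2917 lower.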
